A study of Mus musculus with 8 samples.

Results

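Cell cycle genes were followed in atherosclerotic lesions of mice treated with an IL-1β antibody; interleukin-1β is an inflammatory cytokine. The set holds 42 genes chosen by name, of the 24391 gene symbols counted: 24 mitotic genes, 16 replication genes, and the G1 regulators Ccnd1 and Cdkn1a. It was put together with results of the antibody comparison already known, so the differences between the groups below are a description and are given with no test of the set. All 42 genes passed the filter on low counts, as did 15980 genes in all.

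The samples were 8 brachiocephalic artery lesions, 1 per animal, from C57BL/6 mice fed Western diet over 18 weeks. Animals 1 to 4 of the IgG group received control immunoglobulin (labelled IgG_Control), and animals 1 to 4 of the antibody group received the antibody (labelled IL1_AB). All were described as wild type animals of a smooth muscle lineage tracing line. The labels name no Cre driver, Apoe allele, sex, age, antibody dose or time of injection. Assigned counts ran from 20137336 to 29453014 per library, or 24.4% to 34.9% of the alignment records counted. The tissue was a mixture of cells. Smooth muscle and macrophage transcripts were abundant, with Myh11 at 1021 ± 222 CPM (counts scaled to library size) and Lyz2 at 5277 ± 2346 CPM in IgG animals (mean ± SD, n = 4). Of 6 epithelial markers, a cell type the labels also name, 3 passed the filter. In such a mixture, fewer dividing cells and less cell cycle RNA per cell cannot be told apart.

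A dividing cell switches on its cycle genes in waves. At the passage from G1 into S phase, E2F transcription factors drive genes that license origins, unwind DNA and supply nucleotides. Later, in G2, the MuvB complex with B-MYB and then FOXM1 drives the genes of mitosis, acting through a short promoter element called the cell cycle genes homology region (CHR), often beside CCAAT boxes bound by NF-Y. In quiescent cells the same MuvB core, joined to p130 and E2F4 as the DREAM complex, represses both sets. In lesions, macrophages and smooth muscle cells are known to divide locally.

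Promoter elements differed in frequency between the mitotic and replication genes, without separating every gene. RefSeq promoter windows of GRCm38.p6, from 250 bases before to 50 after each annotated start, were at hand for 33 of the 42 genes. The following stretches end at the base before the start and were chosen because they show the elements of each class. Capitals mark matches, on either strand, to CCAAT, to the CHR hexamers TTTGAA and TTTAAA, and to the E2F octamers TTTCCCGC and TTTGGCGC. The 5 mitotic stretches are from Mki67 (chr7:135716380-135716579, minus strand), Top2a (chr11:99024190-99024299, minus strand), Kif11 (chr19:37376322-37376381, plus strand), Cdk1 (chr10:69352913-69353012, minus strand) and Ccnb1 (chr13:100786487-100786596, minus strand).
Mki67: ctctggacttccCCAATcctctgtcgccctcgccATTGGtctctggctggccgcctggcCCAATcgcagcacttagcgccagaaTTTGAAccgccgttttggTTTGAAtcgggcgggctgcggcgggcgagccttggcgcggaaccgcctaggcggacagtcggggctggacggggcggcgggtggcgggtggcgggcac
Top2a: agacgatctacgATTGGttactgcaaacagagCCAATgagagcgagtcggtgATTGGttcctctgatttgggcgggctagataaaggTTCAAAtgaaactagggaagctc
Kif11: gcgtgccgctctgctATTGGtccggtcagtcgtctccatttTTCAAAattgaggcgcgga
Cdk1: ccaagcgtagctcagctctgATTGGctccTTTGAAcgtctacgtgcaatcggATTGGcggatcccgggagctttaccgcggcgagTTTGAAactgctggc
Ccnb1: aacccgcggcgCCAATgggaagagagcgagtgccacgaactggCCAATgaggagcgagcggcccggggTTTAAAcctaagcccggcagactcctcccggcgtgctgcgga

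The 3 replication stretches are from Mcm6 (chr1:128359706-128359825, minus strand), Mcm5 (chr8:75109349-75109508, plus strand) and Cdc6 (chr11:98908006-98908150, plus strand).
Mcm6: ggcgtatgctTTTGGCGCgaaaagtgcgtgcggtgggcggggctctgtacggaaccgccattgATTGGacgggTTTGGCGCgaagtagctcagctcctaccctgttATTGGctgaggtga
Mcm5: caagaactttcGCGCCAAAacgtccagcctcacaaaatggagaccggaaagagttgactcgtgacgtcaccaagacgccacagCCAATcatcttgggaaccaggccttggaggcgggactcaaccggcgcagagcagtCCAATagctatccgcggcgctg
Cdc6: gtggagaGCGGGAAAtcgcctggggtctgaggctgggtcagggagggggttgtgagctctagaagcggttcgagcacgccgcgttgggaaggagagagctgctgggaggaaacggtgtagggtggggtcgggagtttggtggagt

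The CHR hexamer TTTGAA lay in 15 of the 20 windows of mitotic genes (75%) and in 2 of the 14 windows of replication genes (14.3%). Over all 32851 windows of the table the share was 17.9%. An E2F octamer of either form lay in 5 of 14 replication windows, 35.7%, in 0 of 20 mitotic windows and in 1.56% of all windows. CCAAT was frequent in both classes, with 90.0% of mitotic and 71.4% of replication windows against 37.4% of all windows. The second hexamer, TTTAAA, lay in 30.0% of mitotic, 21.4% of replication and 13.2% of all windows. Either hexamer lay in 90.0% of mitotic, 35.7% of replication and 27.6% of all windows. The windows of Nusap1, E2f1 and Tyms held no match to any of the 5 motifs. No match to one of the 5 motifs overlapped a match to another in these windows. A few genes have more than 1 window, and the pair for Prc1 overlaps. These are matches of letters and not measured binding.

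**Figure D1:**
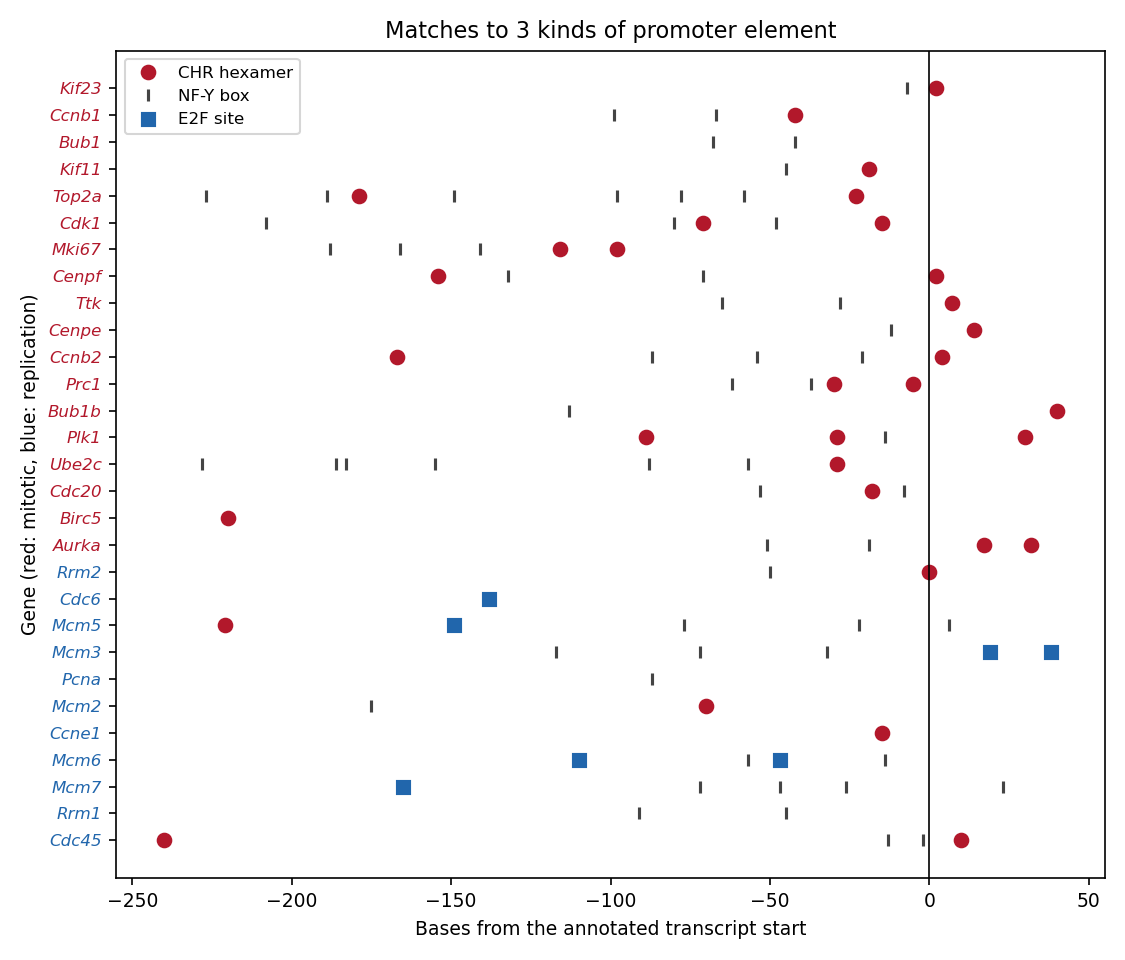
Position of promoter element matches in the RefSeq windows of mitotic (red names) and replication genes (blue names); the x axis gives bases from the annotated transcript start, and CHR hexamer covers both of its forms. Of 19 TTTGAA matches of mitotic genes, 14 lay within 60 bases of the start. The same Prc1 site was counted in each of its overlapping windows. The share of matches near the start over all windows was not counted. The blue E2F squares appear in replication genes only, and genes with a window but no match are not drawn.

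The same motifs were counted in genes outside the set. Among 60 other mitotic genes, TTTGAA lay in 62.5% of 56 windows and an E2F octamer in 10.7%. Among 44 other replication genes, TTTGAA lay in 19.5% of 41 windows and an E2F octamer in 24.4%.

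Levels in the lesions were compared between genes per kilobase of exon (RPKM, mean of 8 animals). The replication gene Pcna, which encodes the sliding clamp of DNA polymerase, had the highest level of all 42, at 42.8 RPKM. Ccnd1 (cyclin D1, the growth factor sensing cyclin of G1) and Cdkn1a (p21, an inhibitor of cyclin-dependent kinases) followed with 22.2 and 16.7 RPKM. Among the Mcm genes, whose products form the ring of the replicative helicase, the range was 3.31 RPKM for Mcm5 to 12.2 RPKM for Mcm6. Mitotic genes were at lower levels, with a median of 1.87 RPKM against 3.13 RPKM for replication genes. Within the mitotic class the order began with Top2a at 6.80 and Mki67 at 5.57 RPKM and ended with Ttk at 0.518 RPKM. The lowest count of any member in any library was 18, for Ttk.

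The antibody comparison asks how blocking IL-1β alters an advanced lesion. In it, all 24 mitotic genes had a log2 fold change (antibody minus IgG) below 0, with a median of -0.38, which is a level 23.0% lower. Of the 16 replication genes, 14 were below 0, with a median of -0.22, or 14.2% lower. Over all 15980 genes 52.3% were below 0 and the median was -0.01. Benjamini-Hochberg adjusted p-values from edgeR (quasi-likelihood) were above 0.05 for all 42 genes, and 0 of all genes passed (0%). DESeq2 passed 8 and limma-voom 2 of all genes, with 0 of the 42 in each. At an unadjusted p under 0.05, edgeR gave 12 members lower and 0 higher, where 2.06% of all genes were lower and 1.13% higher. DESeq2 also gave 12 lower, against 2.28% of all genes, and limma-voom (run with quality weights per sample) 18, against 9.33%. The edgeR count of 12 was 5 without IgG animal 3, 7 without IgG animal 4, 6 without antibody animal 1 and 7 without antibody animal 3. In those fits 2.16%, 1.35%, 1.41% and 1.4% of all genes were lower at that p. The count of members was 13 without IgG animal 1, 11 without IgG animal 2, 14 without antibody animal 2 and 13 without antibody animal 4. There 4.04%, 2.34%, 2.2% and 2.06% of all genes were lower at that p.

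**Figure D2:**
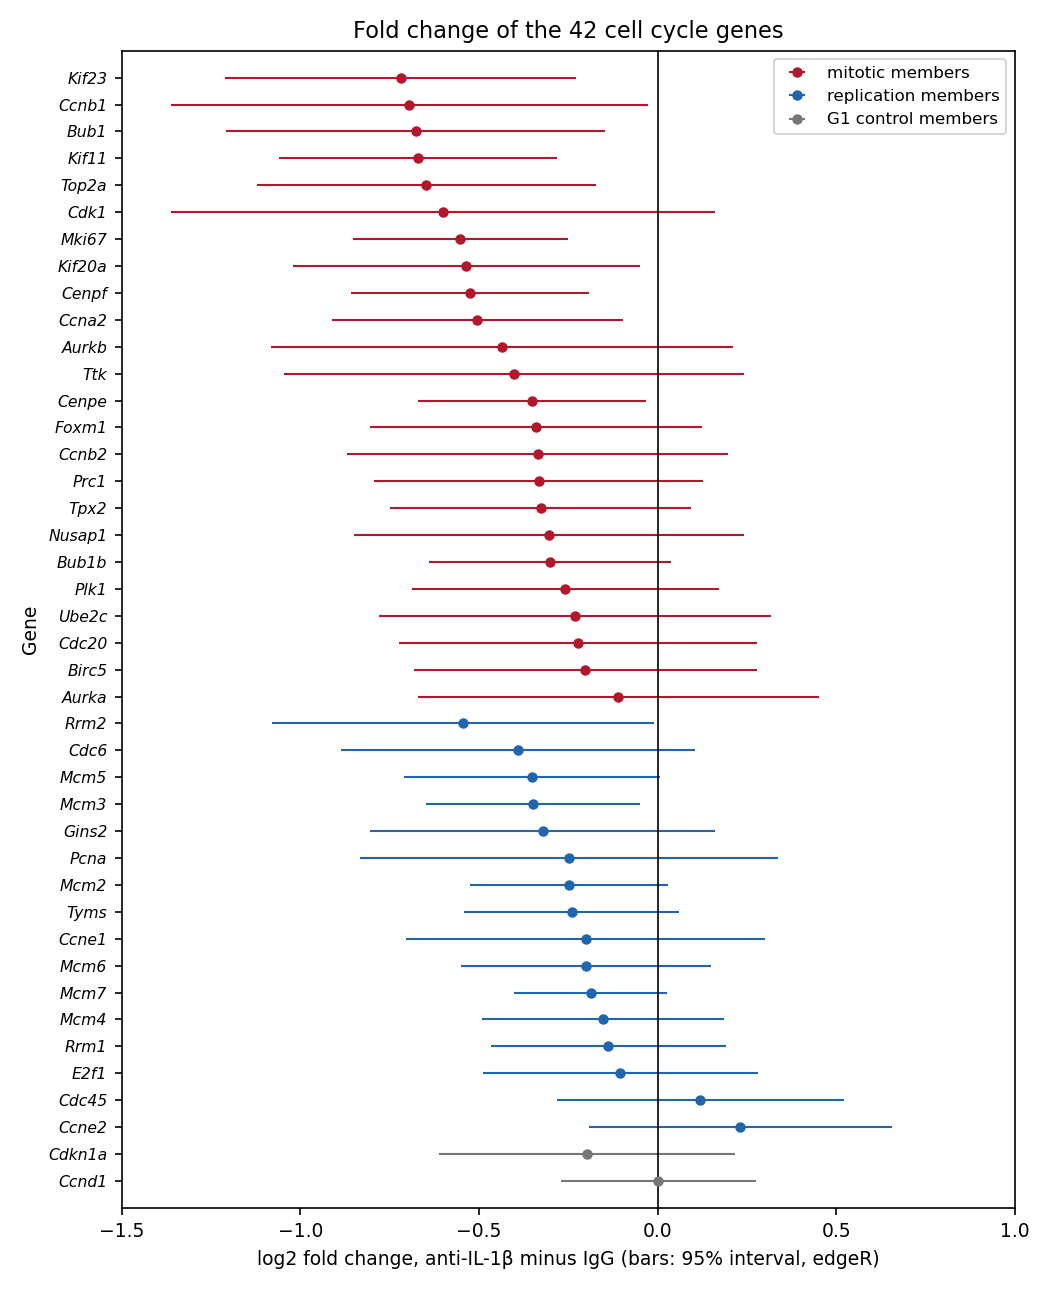
Log2 fold change of each of the 42 genes, antibody minus IgG, with its 95% interval from edgeR (n = 4 animals per group); genes are ordered within their class. The mitotic genes run from -0.72 for Kif23 to -0.11 for Aurka, and the replication genes from -0.54 for Rrm2 to 0.23 for Ccne2.

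Log2 fold changes at or below -0.5 were found for 10 of 24 mitotic genes and for 1 of 16 replication genes. The share of all 15980 genes at or below that cutoff was not counted. The lower quartile of the log2 fold change over all genes was -0.12. For 7 mitotic genes every antibody animal was below every IgG animal, and for 0 replication genes, while 1.25% of all genes had groups apart in that direction. In the opposite direction 0 members and 0.713% of all genes had groups apart. Since the comparison was known when the genes were chosen, nothing is read from these counts. The 7 were Mki67, Top2a, Kif11, Kif23, Cenpf, Bub1 and Ccna2. With scaling by total counts in place of TMM, 4 mitotic genes were apart, where the share over all genes was 0.801%.

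Mki67 encodes Ki-67, which coats mitotic chromosomes and is the usual marker of cycling cells (mm9 chromosome 7, 142881471 to 142908062). It had 71.4, 72.2, 65.3 and 57.8 CPM in IgG animals 1 to 4 and 41.5, 53.3, 37.6 and 49.4 CPM with the antibody 1 to 4. The lowest IgG animal thus lay above the highest antibody animal, and the log2 fold change was -0.55 ± 0.13 (SE). Top2a encodes the topoisomerase that untangles sister DNA (chromosome 11, 98854261 to 98885503). Its levels were 42.6, 35.2, 55.6 and 39.8 CPM with IgG and 22.5, 33.2, 19.95 and 34.9 CPM with the antibody. IgG animal 2 and antibody animal 4 were almost level, and the log2 fold change was -0.65 ± 0.21.

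The spindle motors and midzone proteins had a median log2 fold change of -0.43 over 6 genes. Kif11, the motor that pushes spindle poles apart (chromosome 19, 37450893 to 37496349), had 13.6, 11.1, 14.03 and 11.4 CPM with IgG and 6.93, 9.39, 6.08 and 9.07 CPM with the antibody. Its groups were apart, with a log2 fold change of -0.67 ± 0.17. Kif23, a motor of the central spindle (chromosome 9, 61765085 to 61794606), had 7.60, 7.70, 7.61 and 6.14 CPM with IgG and 3.03, 5.89, 4.94 and 3.72 CPM with the antibody. It had the most negative log2 fold change of the 42, -0.72 ± 0.22, and IgG animal 4 stood below the other 3 IgG animals. Kif20a, a motor needed for cytokinesis, had -0.54 ± 0.22 with groups that overlapped. The microtubule bundling and nucleation genes Prc1 (-0.33 ± 0.20), Tpx2 (-0.33 ± 0.19) and Nusap1 (-0.30 ± 0.24) completed the group.

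Kinetochore and checkpoint genes had a median of -0.40 over 5 genes. Cenpf, which helps couple kinetochores to microtubules (chromosome 1, 191464493 to 191511965), had 15.5, 14.3, 15.001 and 13.3 CPM with IgG and 9.08, 12.8, 8.58 and 9.92 CPM with the antibody. The IgG animals were tightly placed and the groups apart, with a log2 fold change of -0.53 ± 0.15. Bub1, a checkpoint kinase (chromosome 2, 127625936 to 127657595), had 4.24, 3.92, 6.89 and 5.50 CPM with IgG and 2.34, 3.22, 3.54 and 3.72 CPM with the antibody. IgG animal 2 was close to antibody animal 4, and the log2 fold change was -0.68 ± 0.24. The kinetochore motor Cenpe and the checkpoint genes Ttk and Bub1b had -0.35 ± 0.14, -0.40 ± 0.29 and -0.30 ± 0.15, with groups that overlapped.

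**Figure D3:**
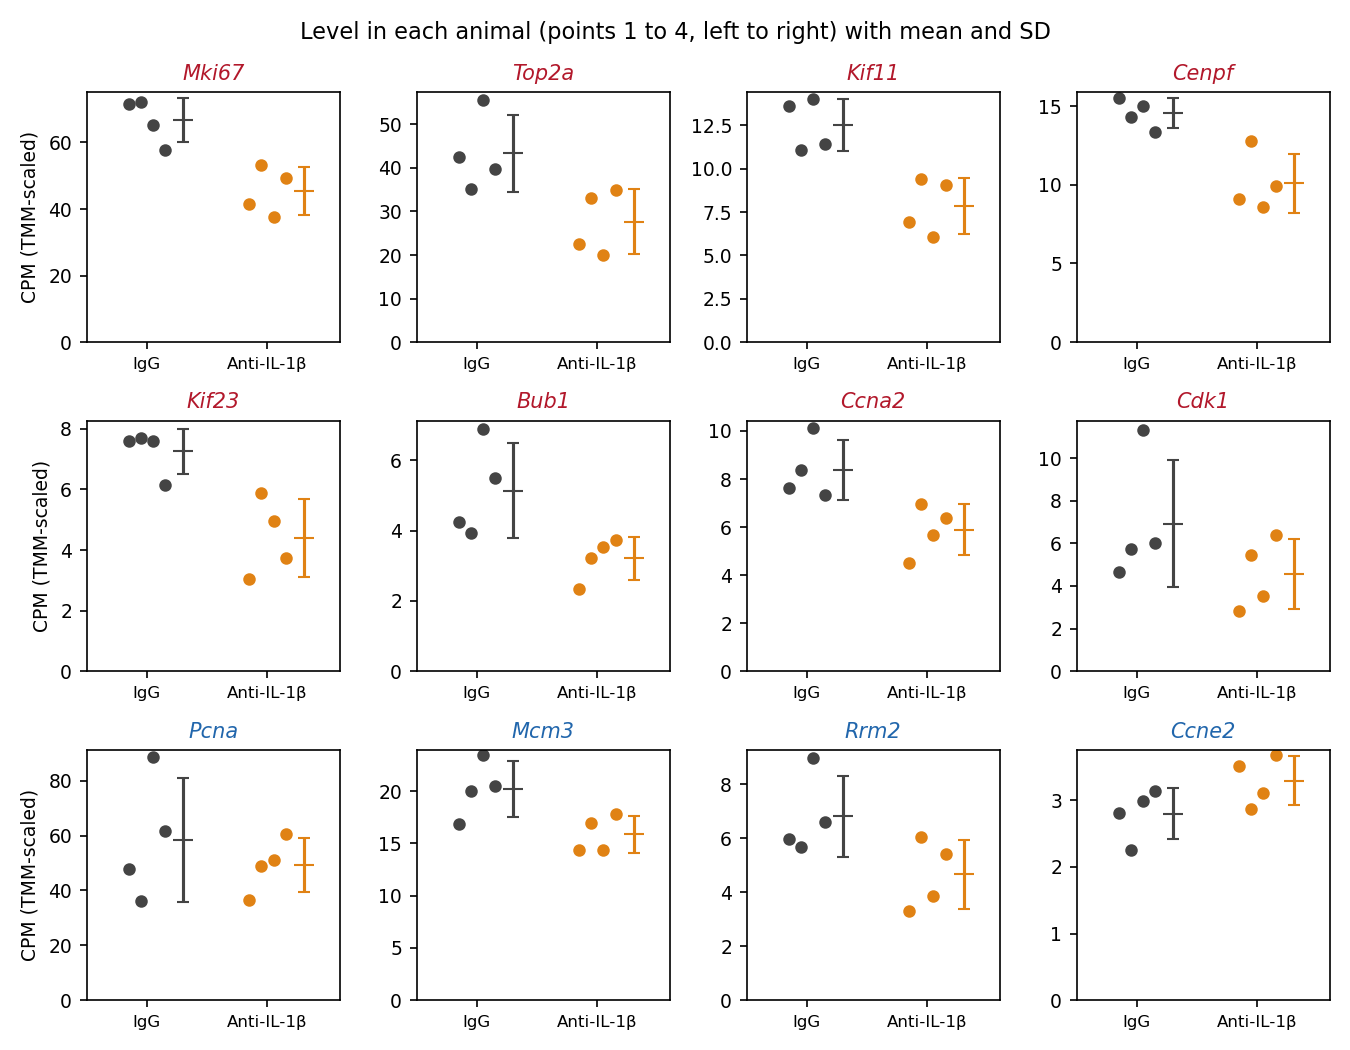
Level of 12 members in each animal, as TMM-scaled CPM on axes that start at 0, with points for animals 1 to 4 from left to right and the mean ± SD beside them (n = 4); red titles are mitotic genes and blue titles replication genes. The first 7 panels have groups that do not overlap; in Cdk1, Pcna and Rrm2 the third IgG point stands above the rest.

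The mitotic cyclins and their kinase had a median of -0.55. Ccna2, the cyclin A2 gene that acts from S phase into mitosis (chromosome 3, 36463787 to 36470918), had 7.63, 8.39, 10.1 and 7.32 CPM with IgG and 4.49, 6.97, 5.69 and 6.39 CPM with the antibody. Its groups were apart, with a log2 fold change of -0.50 ± 0.18. Ccnb1, the main mitotic cyclin, had 4.14, 3.92, 7.25 and 5.10 CPM with IgG and 2.44, 3.82, 2.01 and 4.29 CPM with the antibody. Antibody animal 4 was above IgG animals 1 and 2, and the log2 fold change was -0.70 ± 0.30. Cdk1, the kinase that both cyclins activate, had 4.65, 5.72, 11.3 and 6.04 CPM with IgG and 2.83, 5.47, 3.54 and 6.39 CPM with the antibody. IgG animal 3 stood far above the other IgG animals, the groups overlapped, and the log2 fold change was -0.60 ± 0.34. Ccnb2 had -0.34 ± 0.24.

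The remaining mitotic genes serve mitotic entry, exit and transcription. The median of the mitotic kinases and the passenger complex was -0.23, with -0.44 ± 0.29 for Aurkb, -0.26 ± 0.19 for Plk1, -0.20 ± 0.21 for Birc5 (survivin) and -0.11 ± 0.25 for Aurka. Cdc20 and Ube2c, which serve the ubiquitin ligase that ends mitosis, had -0.22 ± 0.22 and -0.23 ± 0.24. Foxm1, the transcription factor of the G2 and M programme, had 6.57, 8.53, 5.77 and 5.50 CPM with IgG and 4.05, 5.15, 6.61 and 4.98 CPM with the antibody. Antibody animal 3 exceeded 3 of the 4 IgG animals, counting IgG animals 1, 3 and 4, and the log2 fold change was -0.34 ± 0.21. Every one of these 7 genes had groups that overlapped.

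Replication genes lay nearer to 0, with narrower intervals. The 95% intervals had a median half-width of 0.37 (log2), against 0.48 for mitotic genes. The 6 helicase genes were all below 0, from -0.35 ± 0.16 for Mcm5 to -0.15 ± 0.15 for Mcm4, with a median of -0.22. Mcm3 had 16.8, 20.01, 23.5 and 20.5 CPM with IgG and 14.4, 16.9, 14.4 and 17.8 CPM with the antibody. Only IgG animal 1 fell into the range of the antibody animals, and the log2 fold change was -0.35 ± 0.13. Mcm7 was the least variable of the 42, with 20.2, 23.0, 21.7 and 22.5 CPM in IgG, 18.5, 18.7, 19.2 and 20.4 CPM with the antibody and a log2 fold change of -0.19 ± 0.10.

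Nucleotide supply was uneven. Rrm2, the cell cycle regulated subunit of ribonucleotide reductase, had 5.95, 5.67, 8.98 and 6.61 CPM with IgG and 3.32, 6.03, 3.85 and 5.42 CPM with the antibody. It had the most negative log2 fold change of the replication class, -0.54 ± 0.24, and antibody animal 2 was above IgG animals 1 and 2. Rrm1, the large subunit of the same enzyme, had -0.14 ± 0.15, and Tyms, which makes thymidylate, -0.24 ± 0.13. Pcna had 47.7, 36.3, 88.6 and 61.5 CPM with IgG and 36.6, 48.8, 51.1 and 60.7 CPM with the antibody. Its log2 fold change of -0.25 ± 0.26 was carried by IgG animal 3, without which it was 0.02.

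The genes that start replication pointed both ways. Cdc6, which loads the helicase onto origins, had -0.39 ± 0.22, and Gins2, a helicase partner, -0.32 ± 0.22. E2f1, a driver of the S phase programme, had -0.10 ± 0.17 and Ccne1 (cyclin E1) -0.20 ± 0.22. Ccne2 (cyclin E2) had 2.81, 2.26, 2.99 and 3.14 CPM with IgG and 3.51, 2.87, 3.11 and 3.68 CPM with the antibody, a log2 fold change of 0.23 ± 0.19. Cdc45, the third part of the active helicase, had 0.12 ± 0.18, and -0.0007 without antibody animal 3. Both had overlapping groups and were the replication genes above 0.

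Of the G1 regulators, Ccnd1 lay close to 0 and Cdkn1a below it, both with 95% intervals that included 0. Ccnd1 had 69.4, 89.7, 97.5 and 80.9 CPM with IgG and 78.5, 85.0, 82.1 and 92.2 CPM with the antibody. Its log2 fold change was 0.002 ± 0.12, with a 95% interval of -0.27 to 0.27, and its sign changed with the scaling. Cdkn1a had 44.3, 34.0, 36.3 and 30.2 CPM with IgG and 23.9, 26.6, 36.7 and 39.1 CPM with the antibody. Antibody animals 1 and 2 were below every IgG animal and antibody animals 3 and 4 above 3 of 4. The log2 fold change of Cdkn1a was -0.20 ± 0.18, with a 95% interval of -0.61 to 0.22.

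Averaged per animal as mean log2 CPM, the mitotic genes had 2.70, 2.70, 3.05 and 2.73 with IgG and 2.14, 2.55, 2.18 and 2.55 in antibody animals. The lowest IgG animal was above the highest antibody animal. The replication genes had 3.36, 3.32, 3.64 and 3.48 with IgG and 3.08, 3.30, 3.19 and 3.37 in antibody animals, and antibody animal 4 was above IgG animals 1 and 2. The mitotic score minus the replication score was -0.66, -0.62, -0.59 and -0.75 with IgG and -0.94, -0.75, -1.01 and -0.82 in antibody animals. The group means were lower with the antibody for both classes, and by more for the mitotic class; in the score difference, IgG animal 4 and antibody animal 2 were equal to 2 decimals. That difference between the classes was not tested.

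**Figure D4:**
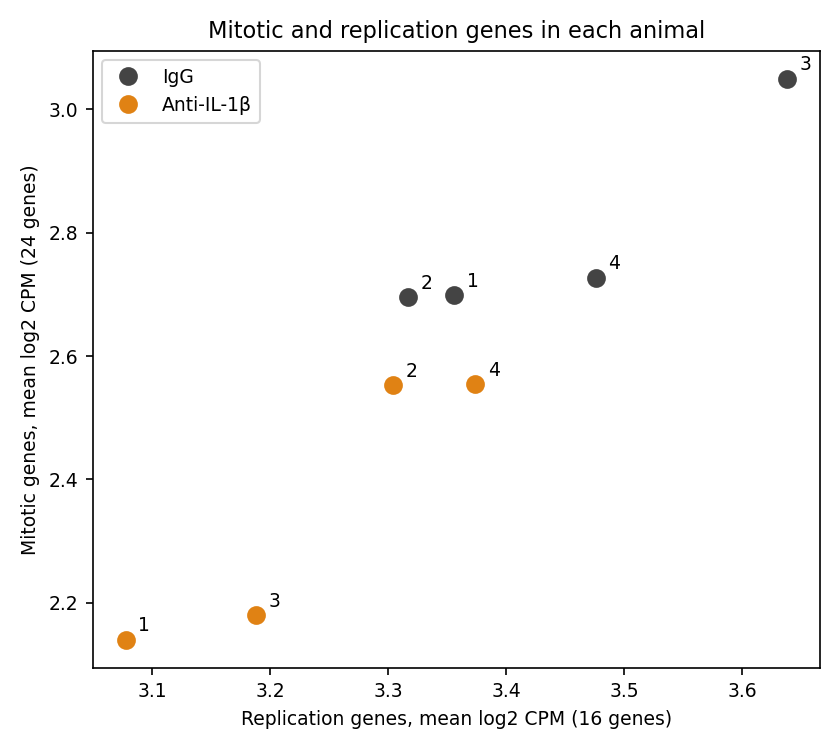
Mean log2 CPM of the 24 mitotic genes (y axis) against that of the 16 replication genes (x axis), 1 point per animal with its number. Along the y axis the IgG animals, 2.70 and above, lie over the antibody animals, 2.55 and below; along the x axis the groups overlap, and IgG animal 3 is highest on both axes.

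Single animals set the extremes. IgG animal 3 had the highest value of the 8 animals for 15 of 24 mitotic and 10 of 16 replication genes. Antibody animal 1 had the lowest for 13 mitotic and 7 replication genes, and antibody animal 3 for 9 mitotic and 3 replication genes. Mki67 and Top2a together made up 37.5% to 45.3% of the summed CPM of the mitotic genes. Without them the sum was 138, 139, 172 and 138 CPM with IgG and 92.1, 125, 96.1 and 121 CPM with the antibody. The groups did not overlap in that sum. It still held Kif11, Kif23, Cenpf, Bub1 and Ccna2, whose groups were apart singly, so nothing further is read from it.

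Variation between animals of a group was compared across members. Taking each animal's deviation from its group mean, the median Pearson correlation was 0.46 over 276 pairs of mitotic genes, 0.28 over 120 pairs of replication genes and 0.40 over 384 mixed pairs (8 animals, no test). The points share libraries and scaling, and the correlation over pairs of other genes was not computed. Of the pairs, 47.1%, 39.2% and 39.8% were above 0.5. Cdk1 (0.95), Top2a (0.94) and Ccnb1 (0.94) followed the mean of the other mitotic genes most closely. Rrm2 had 0.98 with the mitotic mean and 0.90 with the rest of its own class. The members with negative values were Plk1 (-0.30) and Foxm1 (-0.25) against the mitotic mean and Cdc45 (-0.40) and Mcm2 (-0.05) against the replication mean. Mki67 had 0.53 with the mitotic mean and 0.19 with the replication mean.

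Cell cycle genes outside the set were taken from lists of mitotic, replication, G1, inhibitor, p53 target and DREAM genes. Of 60 other mitotic genes, 56 were below 0, with a median of -0.37, and 9 had groups apart in that direction. The 4 with the smallest p were Aspm, a spindle pole gene (12.1 ± 1.20 and 8.48 ± 0.776 CPM with IgG and antibody, SD, n = 4), the kinesin genes Kif20b (-0.47 ± 0.12, log2 fold change ± SE) and Kif14 (-0.78 ± 0.23), and the kinetochore gene Spc24 (-0.81 ± 0.24). Of 44 other replication genes, 36 were below 0, with a median of -0.17, and 1 had groups apart. That was Lig1, the ligase that joins Okazaki fragments, with 13.6 ± 0.536 and 10.7 ± 0.250 CPM and a log2 fold change of -0.34 ± 0.10. Exo1 (-0.65 ± 0.29), the kinase activator Dbf4 (-0.40 ± 0.19) and the maintenance methyltransferase Dnmt1 (-0.21 ± 0.11) followed. With edgeR, 0 of these genes passed an adjusted p of 0.05, and 18 mitotic and 1 replication gene had an unadjusted p under 0.05, all lower. Over all genes 2.06% were lower at that p and 1.25% had groups apart, so the single replication gene was near the background. These lists too were chosen with earlier results of these data known, and their values come from the same animals. Their counts are a description and not a separate test of the members.

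**Figure D5:**
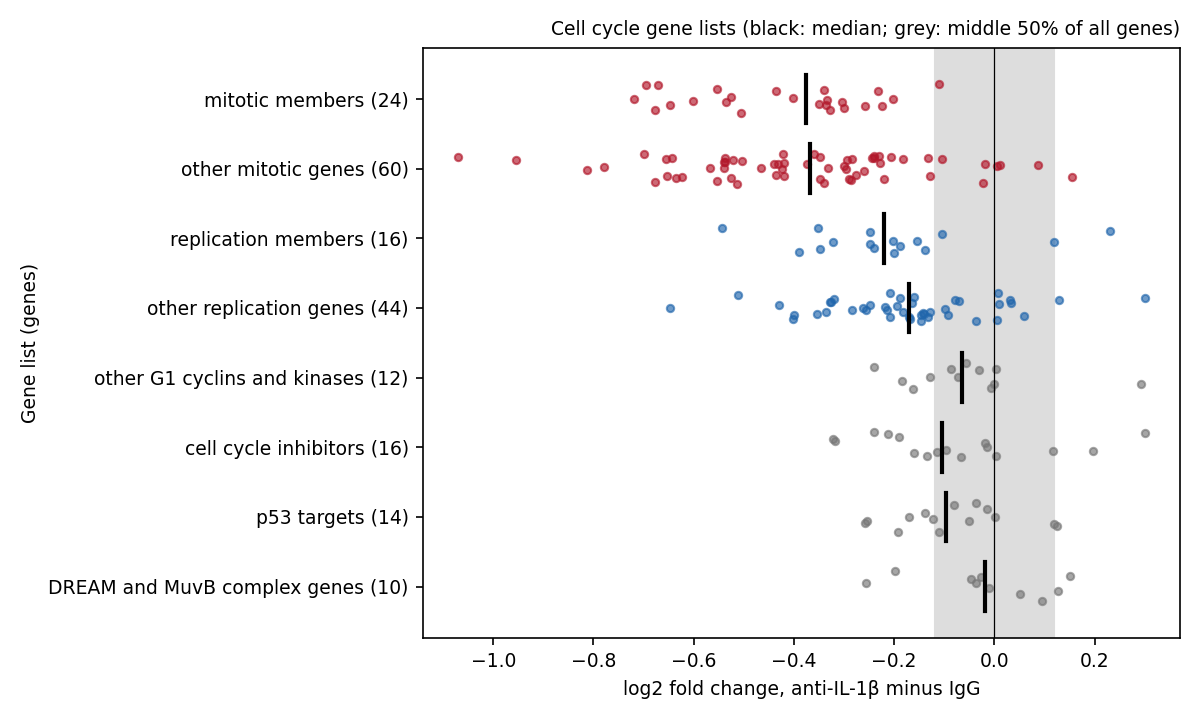
Log2 fold change, antibody minus IgG, of each gene of 8 cell cycle lists (1 point per gene, with the number of genes beside the name); black bars are medians and the grey band holds the middle 50% of all 15980 genes. The medians lie at -0.38 and -0.37 for the mitotic lists, at -0.22 and -0.17 for the replication lists and inside the band for the other 4 lists.

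The other 4 lists, of G1 genes, inhibitors, p53 targets and DREAM genes, lay nearer to the median of all genes. The median was -0.06 for 12 other G1 cyclins, kinases and growth regulators, 10 of them below 0. The genes with the smallest p there were Myc (-0.18 ± 0.14), Skp2 (-0.24 ± 0.20), Mycn (0.29 ± 0.33) and Ccnd2 (-0.13 ± 0.15). It was -0.10 for 16 inhibitors and checkpoint genes, 12 of them below 0, led by the pocket protein gene Rbl1 (-0.32 ± 0.15) and the checkpoint kinase gene Chek1 (-0.32 ± 0.20). For 14 p53 targets it was -0.10, with Bax at -0.25 ± 0.16 and Mdm2 at -0.14 ± 0.10. For 10 genes of the DREAM and MuvB complexes and their E2F partners it was -0.02, with E2f4 at -0.26 ± 0.19 and Lin52 at 0.15 ± 0.14. In these 4 lists, 0 genes had an unadjusted p under 0.05 with edgeR. Over all genes 2.06% were lower and 1.13% higher at that p. Groups were apart for 1 gene, Chek1, whose lowest IgG animal had 2.395 CPM and highest antibody animal 2.392 CPM. The share of all genes with groups apart in that direction was 1.25%. With lists this short, nothing is read from these counts.

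Markers of cells that could carry cycle transcripts were counted in the same libraries, and 0 passed an adjusted p of 0.05 in edgeR. All 14 macrophage markers were below 0 (median -0.33), and their summed level was 4970 to 12976 CPM with IgG and 5917 to 8610 CPM with the antibody, so the groups overlapped. All 10 B and plasma cell markers were below 0 (median -0.94), with sums of 140 to 255 and 120 to 173 CPM. The most abundant of them were Sdc1 and Cd22, with means of 120 and 43.7 CPM with IgG. The mean score of the list was 1.20 lower with the antibody (log2 CPM). In edgeR 5 of the 10 were lower at an unadjusted p under 0.05, against 2.06% of all genes. Groups were apart for 2, against 1.25% of all genes. No other marker list had more than 1 marker at that p, and 0 had groups apart. Pax5 had no count in antibody animal 1. Of 9 T cell markers 8 were below 0 (median -0.41), with sums of 31.3 to 62.9 and 17.7 to 53.2 CPM. Smooth muscle markers had 7 of 9 above 0 (median 0.09), with sums of 2280 to 2991 and 1484 to 4014 CPM. All 8 fibroblast markers (median -0.26), 6 of 8 endothelial markers (-0.08), 3 of 4 germinal centre markers (-0.05), 3 of 4 neutrophil markers (-0.18), 2 of 4 erythroid precursor markers (-0.03) and all 3 epithelial markers (-0.51) that passed the filter were below 0. The part of these cells in the cell cycle values was not tested.

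Thymocytes divide rapidly, and thymocyte transcripts were present in some libraries of each group. Rag1, needed to rearrange antigen receptor genes, had 46.3, 0.922, 0.0721 and 0.135 CPM with IgG and 7.61, 38.8, 1.66 and 2.51 CPM with the antibody. IgG animal 1 and antibody animal 2 stood far above the rest. Dntt had no count in IgG animal 3, and Arpp21 none in IgG animals 3 and 4. Of 10 thymocyte markers 8 passed the filter, 4 of them below 0, with a median log2 fold change of -0.06, a mean score that was 0.76 higher with the antibody (log2 CPM) and sums of 75.6 to 191 CPM with IgG and 92.0 to 159 CPM with the antibody. Without those 2 libraries the medians were -0.54 for mitotic and -0.30 for replication genes, and 13 and 6 genes had groups apart, where 6.92% of all genes did so at 3 animals per group.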

How the data were processed

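RNA sequencing counts of 8 lesions were used. The authors counted reads over exons by gene name with featureCounts 1.4.6-p4 in the UCSC annotation of mm9, per the file headers, and deposited raw counts per gene and a table of alignments by status. The header shows no strand option, so antisense reads count for the gene they overlap. The submitters' processing notes further name STAR 3.0, Subread, DESeq2 and CASAVA, without saying for which step. The exon length deposited by the authors served for RPKM only.

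Genes were kept by edgeR's filterByExpr (minimum count 10, minimum total 15), scaled by TMM and fitted in R 4.3.3 with edgeR 4.0.16 (robust quasi-likelihood). Adjusted p-values are Benjamini-Hochberg over all 15980 genes kept. SE comes from the fold change and its F statistic. Scores are mean log2 CPM (prior count 2). DESeq2 1.42.0 and limma-voom with sample quality weights (limma 3.58.1) were alternatives. The fit was also run on simulated data, with planted changes larger than that of any member. Whether changes of the members' size would be detected was not tested.

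The members and lists were chosen with earlier results of these data known. All members may be named, of other lists the 4 genes with the smallest p, and of marker lists the 3 most abundant. Pax5, Dntt and Arpp21 were named after their values were seen. Older symbols stood for Knl1, Sgo1, Sgo2a and Pimreg.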

Additional observations from a re-analysis of the deposited data

Results flagged for a closer look

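Among the 84 groups of 4 animals formed by 42 genes and 2 treatments, 2 held an animal far from the others by Dixon's ratio, and chance gives about 1 in 20 groups, here 4.2. For Kif23, IgG animal 4 had 6.14 CPM while the other 3 IgG animals lay between 7.60 and 7.70 CPM. For Plk1, IgG animal 2 had 2.58 CPM while the others lay between 3.004 and 3.045 CPM.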

How the results depend on the processing

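No alternative brought any of the 42 genes past an adjusted p of 0.05; the smallest adjusted p of a member was 0.156, with limma-voom. The mitotic median stayed between -0.54 and -0.32 and the replication median between -0.30 and -0.17 over 16 alternatives, 1 of which, without the 2 libraries with most thymocyte RNA, was chosen after seeing the data. In it, 13 mitotic and 6 replication genes had groups apart, where 6.92% of all genes did so at 3 animals per group. Ccnd1 had -0.085 in that fit. The count of mitotic genes apart was 4 with total counts only, where the share of all genes was 0.801%. With 1 animal left out, 7 to 10 mitotic and 0 to 4 replication genes were apart, where 1.77% to 4.77% of all genes were, the most replication genes without IgG animal 1 (4), antibody animal 4 (3) and antibody animal 2 (2). Ccnd1 had -0.0042 with DESeq2 size factors in edgeR, -0.0020 with no filter and -0.0040 with DESeq2, and -0.080 (without IgG animal 1) to 0.079 (without IgG animal 3) with 1 animal left out. The DREAM and MuvB median was 0.012 with total counts only and -0.054 to 0.054 with 1 animal left out. Leaving out 1 animal gave -0.42 to 0.022 (without IgG animal 3) for Pcna and, with the values nearest to the opposite sign all without antibody animal 3, -0.22 to 0.050 for Aurka, -0.00074 to 0.21 for Cdc45 and -0.22 to 0.0023 for E2f1. The causes were not tested. The labels name no pairing of same-numbered animals of the 2 groups and no batch. Correlations of the deviations of same-numbered animals were 0.29, -0.34, -0.13 and -0.0012 for numbers 1 to 4. Only for number 1 was this the highest correlation of the IgG animal with any antibody animal. With the replicate block the mitotic median was -0.40 and the replication median -0.22. In that edgeR fit 9 members were lower at an unadjusted p under 0.05, against 1.45% of all genes. With 4 animals per group, the members' 95% intervals had a median half-width of 0.44 (log2).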
